A study of Mus musculus with 6 samples.

Results

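The genes described here are the small noncoding RNA genes of a total RNA data set from sorted mouse vascular smooth muscle cells (SMC). They are the listed genes whose Ensembl biotype is snRNA, snoRNA, scaRNA, misc_RNA or miRNA and whose mean over 6 libraries was at least 10. The table lists 32179 genes, of which 1345 have one of these 5 biotypes, and 76 of the 1345 (5.65%) met the minimum. By biotype these are 8 of 312 snRNA genes, 44 of 438 snoRNA genes, 7 of 23 scaRNA genes, 6 of 145 misc_RNA genes and 11 of 427 miRNA genes. Of the 1345, 678 had a sum of at most 3 over the 6 libraries and 81 had a mean from 5 to 10. All values are normalised read counts, which the authors scaled per library and rounded to whole numbers. The members were thus selected on the same values that are described below.

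The study compared SMC from mice depleted of the orphan receptor GPRC5C in SMC with SMC from control mice. The 3 control libraries carry the genotype label wild type, while the source label of all 6 libraries says Gprc5c-floxed. The 3 depleted libraries are labelled iSM-G5C-KO and are called KO here. All mice were male C57BL6J, 8 to 24 weeks old, given tamoxifen and carriers of the mTmG reporter, which switches to EGFP in cells where Cre has acted. The promoter that drives Cre was not given in the sources used here. Skeletal muscle was digested, cells with CD31, CD45 or Ter119 were removed, and live cells with EGFP were collected by flow sorting. Libraries were made from 5 ng of total RNA with a stranded kit for very low input. No label ties the libraries of 1 group to different mice. The p-values therefore reflect only how far these libraries spread, and that spread may be technical.

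Small nuclear RNAs are the RNA cores of the spliceosome. Most small nucleolar RNAs guide methylation (C/D box type) or pseudouridylation (H/ACA type) of ribosomal RNA, and most in mammals are cut out of introns of other genes. Small Cajal body RNAs do the same for small nuclear RNAs. The misc_RNA biotype holds RNA polymerase III transcripts such as 7SK and the Y RNAs, and genes of the miRNA biotype are annotated by their hairpins. None of these RNAs needs a poly(A) tail, so a total RNA library can contain them, although the shortest are lost in most library preparations.

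The sequences below belong to the genes on which the results turn. They are the annotated transcripts of GENCODE M21 (GRCm38) written as DNA, 5′ to 3′, and all 76 genes had the same coordinates there as in the deposited table. The spliceosomal RNAs come first, since 7 of the 8 snRNA genes were higher in KO. In the first 2, which are U1 genes, capitals mark ACTTACCT from position 3, letters near the end of U1 that pair with the 5′ splice site. In the U4 pair capitals mark the bases that differ, in the U2 gene GTAGTA, which pairs with the intron branch point, and in Rnu12 the Sm site letters ATTTTTG. Rnu11 has no capitals.
Gm22513, U1, chr12:54696782-54696945 (plus strand): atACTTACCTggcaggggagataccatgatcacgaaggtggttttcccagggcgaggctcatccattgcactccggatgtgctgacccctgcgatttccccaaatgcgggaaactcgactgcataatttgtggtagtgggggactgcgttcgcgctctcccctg
Gm25189, U1, chr2:117248271-117248434 (plus strand): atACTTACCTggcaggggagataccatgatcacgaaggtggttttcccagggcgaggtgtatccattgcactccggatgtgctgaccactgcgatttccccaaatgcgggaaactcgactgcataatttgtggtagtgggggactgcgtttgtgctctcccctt
Gm24265, U4, chr5:115489459-115489599 (plus strand): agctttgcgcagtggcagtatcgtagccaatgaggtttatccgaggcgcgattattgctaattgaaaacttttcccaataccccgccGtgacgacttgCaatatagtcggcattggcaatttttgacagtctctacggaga
Gm24407, U4, chr5:115490254-115490394 (plus strand): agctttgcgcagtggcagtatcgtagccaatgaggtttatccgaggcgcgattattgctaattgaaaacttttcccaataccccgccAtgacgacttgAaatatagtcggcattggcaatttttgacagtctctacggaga
Gm25939, U2, chr1:72255008-72255198 (plus strand): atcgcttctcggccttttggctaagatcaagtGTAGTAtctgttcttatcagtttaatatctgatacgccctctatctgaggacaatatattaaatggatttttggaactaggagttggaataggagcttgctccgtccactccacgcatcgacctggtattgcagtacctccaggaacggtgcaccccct
Rnu11, U11, chr4:132270080-132270213 (minus strand): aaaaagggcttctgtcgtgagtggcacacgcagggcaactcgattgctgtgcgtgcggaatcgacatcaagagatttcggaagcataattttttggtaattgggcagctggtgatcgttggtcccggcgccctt
Rnu12, U12, chr15:83149644-83149794 (plus strand): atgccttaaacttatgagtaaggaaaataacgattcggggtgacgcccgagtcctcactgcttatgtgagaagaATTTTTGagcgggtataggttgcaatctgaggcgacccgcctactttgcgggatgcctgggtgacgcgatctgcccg

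The next sequences are snoRNAs, of which Gm24494, Gm26447, Snord14c and Gm25117 had the 4 smallest p-values for a higher KO level, and Snora73b is shown for the gap between its groups in the libraries numbered 2 and 3. Capitals mark the bases at which Snord14c and Snord14d differ, box D (CTGA) in Gm24494 and the ACA near the 3′ end in the last 3.
Gm24494, chr3:153911610-153911690 (minus strand): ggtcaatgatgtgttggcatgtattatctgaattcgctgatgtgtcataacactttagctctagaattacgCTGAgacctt
Snord14c, chr9:40803583-40803668 (plus strand): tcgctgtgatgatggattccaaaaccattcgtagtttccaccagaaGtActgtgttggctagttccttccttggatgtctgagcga
Snord14d, chr9:40803995-40804080 (plus strand): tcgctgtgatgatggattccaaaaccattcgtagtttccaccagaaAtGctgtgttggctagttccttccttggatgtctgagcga
Gm26447, chr16:23111301-23111429 (plus strand): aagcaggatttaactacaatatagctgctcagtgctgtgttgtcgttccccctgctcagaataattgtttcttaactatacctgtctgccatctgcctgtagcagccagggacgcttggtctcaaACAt
Gm25117, chr10:111481493-111481636 (plus strand): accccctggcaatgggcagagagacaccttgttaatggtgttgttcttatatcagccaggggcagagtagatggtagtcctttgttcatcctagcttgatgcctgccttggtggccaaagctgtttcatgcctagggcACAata
Snora73b, chr4:132352322-132352526 (minus strand): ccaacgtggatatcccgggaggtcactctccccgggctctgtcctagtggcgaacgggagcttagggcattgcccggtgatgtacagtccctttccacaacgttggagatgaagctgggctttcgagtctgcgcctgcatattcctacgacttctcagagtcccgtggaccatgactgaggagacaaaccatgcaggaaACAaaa

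The Y RNAs are shown with capitals on the T run at the 3′ end, where RNA polymerase III stops.
Rny1, chr6:47788069-47788180 (minus strand): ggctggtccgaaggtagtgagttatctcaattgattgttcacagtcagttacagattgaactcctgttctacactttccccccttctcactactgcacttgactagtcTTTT
Rny3, chr6:47781624-47781725 (plus strand): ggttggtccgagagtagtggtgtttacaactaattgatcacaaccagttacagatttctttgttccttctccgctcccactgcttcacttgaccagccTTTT

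Genes of the miRNA biotype fall into a family of near copies and single hairpins. Gm23935, Gm24245 and Gm24270 have the same 57 bases, so Gm23935 is printed for all 3, and capitals in Gm24187 and Gm23388 mark the bases that differ from it. Gm25911 has 56 bases and is printed without capitals.
Gm23935, chr16:11144125-11144181 (plus strand): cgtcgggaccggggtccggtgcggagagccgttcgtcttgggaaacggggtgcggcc
Gm24187, chr13:9834469-9834525 (minus strand): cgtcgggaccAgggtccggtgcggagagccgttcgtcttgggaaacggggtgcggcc
Gm23388, chr8:85112012-85112068 (minus strand): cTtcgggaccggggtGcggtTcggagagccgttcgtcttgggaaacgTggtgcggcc
Gm25911, chr1:167340369-167340424 (minus strand): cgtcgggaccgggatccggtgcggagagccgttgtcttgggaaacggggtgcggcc

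RefSeq (GRCm38.p6) gave 5 mature miRNAs for 4 of the 11 miRNA genes. They are printed as RNA with the seed, bases 2 to 8, in capitals, and the 5 seeds all differ.
mmu-miR-6236, chr9:110281353-110281371 (plus strand): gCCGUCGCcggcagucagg
mmu-miR-1938, chr12:40222782-40222803 (minus strand): cGGUGGGAcuuguaguucgguc
mmu-miR-5125, chr17:23823339-23823358 (plus strand): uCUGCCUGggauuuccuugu
mmu-miR-1894-5p, chr17:35917899-35917920 (plus strand): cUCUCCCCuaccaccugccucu
mmu-miR-1894-3p, chr17:35917938-35917959 (plus strand): gCAAGGGAgagggugaagggag

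The 6 libraries were shallow. The spacing of low values gave an estimated 1478013 to 2935114 reads per library, with the libraries numbered 3 the shallowest and those numbered 1 the deepest in both groups. The median member rested on 14.7 to 22.8 estimated reads in a library, which is a counting error of 21.0% to 26.1%, and the lowest value on 2.65. These estimates cover counting error only. Control library 3 had 29707 genes above 0, against 20481 to 21179 in the other 5. Below, 3 values for a group stand in the order of the library numbers 1, 2 and 3. Gprc5c had 428, 532 and 497 normalised counts in controls against 328, 305 and 360 in KO. Summed SMC markers ranged from 11452 to 12024 in controls and from 9938 to 11700 in KO. Endothelial markers summed to 326 to 651 against 387 to 897, leukocyte markers to 100 to 399 against 104 to 475, and erythroid markers to 15 to 27 against 19 to 49. Fibroblast markers summed to 3069 to 4510 against 2530 to 4311, and Schwann cell markers to 260 to 442 against 223 to 462. No marker of these lists was at 0 in all 6 libraries. Skeletal muscle fibre markers summed to 1345, 2088 and 3185 in controls against 1911, 4040 and 8239 in KO. In a bulk sample, fewer cells of a type and less RNA per cell cannot be told apart.

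Summed over all 76 genes, small RNA came to 1378, 1664 and 2160 normalised counts in controls against 1409, 1973 and 2732 in KO. Group means were 1734 ± 396 and 2038 ± 664 (SD, n = 3 each), a log2 ratio of 0.23, and the groups overlapped. Both libraries numbered 3 were the highest of all 6 and both numbered 1 the lowest. Library 3 exceeded library 1 by 1.57-fold in controls and 1.94-fold in KO, each more than the difference between the group means.

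By class, the gap between KO and control was widest for the spliceosomal RNAs and narrowest for miRNA genes. The snRNA sum was 89, 111 and 148 in controls and 96, 154 and 214 in KO, with means of 116 ± 29.8 and 155 ± 59.0. The snoRNA sum was 604, 701 and 924 in controls and 623, 907 and 1268 in KO, with means of 743 ± 164 and 933 ± 323. Their log2 ratios of means, KO over control, were 0.42 and 0.33. For scaRNA genes the sums were 260, 336 and 431 against 250, 368 and 549, and the log2 ratio was 0.18. For misc_RNA genes they were 130, 150 and 182 against 133, 163 and 218, with a log2 ratio of 0.15. The miRNA sums of 295, 366 and 475 against 307, 381 and 483 gave 0.04. Most of this sum was the family of 6 near copies, with means of 246 in controls and 262 in KO, against 379 and 390 for the class. Whether that family resembles ribosomal RNA was not tested. In every class the groups overlapped, number 1 was the lowest and number 3 the highest library of its group.

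**Figure D1:**
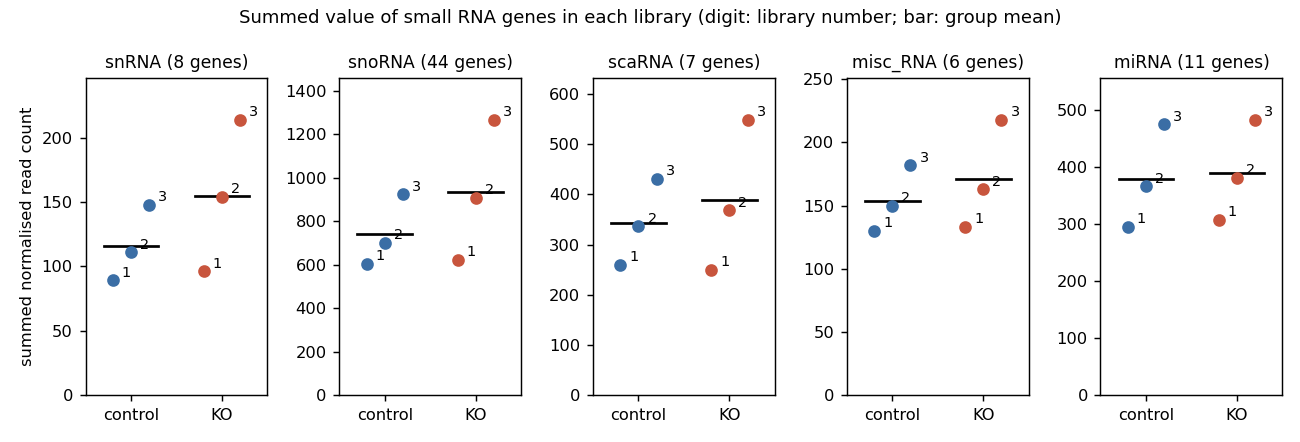
Summed normalised read count of the small RNA genes of each biotype (y axis, from 0) in control and KO libraries; digits are library numbers and bars group means. In each panel number 3 lies highest and number 1 lowest within both groups, and the ranges of the groups overlap.

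The class ratios fell without KO library 3 or control library 1, and rose without control library 3 or KO library 1. Without KO library 3 the log2 ratio of the summed value was 0.11 for snRNA, 0.04 for snoRNA, -0.15 for scaRNA, -0.06 for misc_RNA and -0.14 for miRNA genes. Over all 76 genes it was then -0.04, against 0.23 with all libraries. Without control library 1 it was 0.26, 0.20, 0.02, 0.05 and -0.11 in the same order. The direction for snRNA and snoRNA genes was KO higher with each of the 6 libraries left out in turn, and for scaRNA, misc_RNA and miRNA genes it was not.

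Gene by gene, none of the 76 passed the test between KO and control (limma on log2(value + 1), Benjamini-Hochberg over the 12735 genes tested, adjusted p under 0.05), and over all genes 0.0% were called. The smallest unadjusted p among the members was 0.055, so 0 of 76 lay under 0.05, against 1.81% of all genes. The adjusted p rounded to 0.999 or higher for each of them. KO means on the log2 scale were nevertheless higher for 62 of 76 members, against 50.2% of all genes, and the median log2 difference was 0.23 against 0.00. Without KO library 3, 43 of 76 were higher and the median was 0.03. With both libraries numbered 3 left out and the library number as a block, 59 of 76 were higher and the median was 0.19. That setting was chosen after the data were seen. Without the minimum the direction by gene turned: 495 of all 1345 listed small RNA genes were higher in KO (36.8%, against 33.5% of all listed genes). The median over the 1345 was -0.19, against -0.14 over all listed genes. The log2 ratio of their summed values stayed above 0, at 0.14, and by class only that of miRNA genes was below 0, at -0.11. Of the 1345, 371 (27.6%) were above 0 in control library 3 alone, as were 18.8% of all listed genes. The KO mean alone reached the minimum for 10 members and the control mean alone for 3. The first 10, among them Gm24494 and Gm25189, had to have the higher KO mean, so they are no support for a direction. The same holds for the 3, Gm22107, Snord49a and Gm23130, which had to have the lower. Of the 63 members with both means at 10 or more, 52 were higher in KO, with a median of 0.21. By class, 7 of 8 snRNA genes were higher (median 0.46), 38 of 44 snoRNA genes (0.28), 6 of 7 scaRNA genes (0.11), 4 of 6 misc_RNA genes (0.10) and 7 of 11 miRNA genes (0.09). Among the 63 this was 6 of 6 snRNA genes (0.46) and 29 of 33 snoRNA genes (0.25), with the other classes unchanged. Over all listed genes of each class, without the minimum, the medians were -0.33 for snRNA, -0.088 for snoRNA, 0.11 for scaRNA, -0.33 for misc_RNA and -0.19 for miRNA genes. They stand beside the -0.14 of all listed genes.

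**Figure D2:**
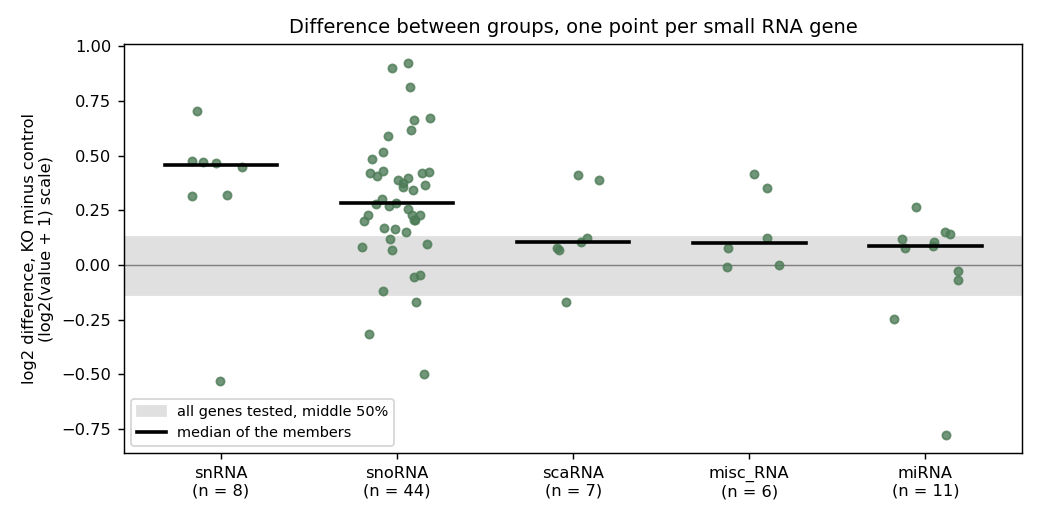
Difference between group means on the log2(value + 1) scale (y axis) for each small RNA gene, by biotype (x axis), with medians as bars and the middle 50% of all genes tested in grey. Most snRNA and snoRNA points lie above the grey band, with medians of 0.46 and 0.28, while no gene passed the test and only genes with a mean of at least 10 are drawn.

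With the library number as a block, 0 of 76 members passed, where 0.00785% of all genes did, and 2 had an unadjusted p under 0.05, where 10.2% of all genes did. Those 2, Gm26447 and Gm25117, were higher in KO, and their blocked adjusted p was 0.446 and 0.451. The groups did not overlap for 3 of 76 members (3.95%), against 4.91% of all genes. All 3 were higher in KO, where 2.69% of all genes were. Without KO library 1 this count was 29, where 29.5% of all genes did not overlap, and without control library 3 it was 12, where 14.0% did not. The counts under an unadjusted p of 0.05 were then 7 and 1, where 10.3% and 2.38% of all genes lay under it.

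An ordering of the libraries by number recurred across many of the small RNA genes. Both libraries numbered 3 lay above the other 4 for 27 of 76 members (35.5%), against 9.83% of all genes. Both libraries numbered 1 lay below the other 4 for 41 (53.9%), against 18.2%. Library 3 exceeded library 1 in both groups for 58 (76.3%), against 33.0%. The first of these patterns held for 6 of 7 scaRNA, 6 of 11 miRNA, 12 of 44 snoRNA, 2 of 6 misc_RNA and 1 of 8 snRNA genes. Only 4 members were lower in library 3 than in library 1 in both groups, namely Mir1938, Gm22637, Gm22107 and Gm23455, which were singled out after their values were seen. The libraries numbered 3 are the shallowest, and they also hold the highest skeletal muscle fibre marker sum of their group. The part of depth, of muscle fibre RNA or of library preparation in this pattern was not tested. The other tested genes of at most 500 bp, 25 in number and 13 of them processed pseudogenes, included 9 (36%) with both libraries numbered 3 highest, while their median log2 difference between KO and control was 0.01.

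Within numbers, KO exceeded control for 42 of 76 members in the libraries numbered 1 (43.9% of all genes did), for 60 in those numbered 2 (48.5%) and for 60 in those numbered 3 (51.2%). The median difference of the members was 0.09, 0.31 and 0.34 on the log2 scale. For 51 members (67.1%, against 29.0%) KO was higher in numbers 2 and 3 alike. These counts and medians include the 10 members that met the minimum through their KO mean alone and the 3 through their control mean alone. The minimum fixed the direction of their means, and values without them were not computed. Among snRNA genes the medians were 0.27, 0.54 and 0.50, and among miRNA genes 0.06, 0.10 and 0.03.

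**Figure D3:**
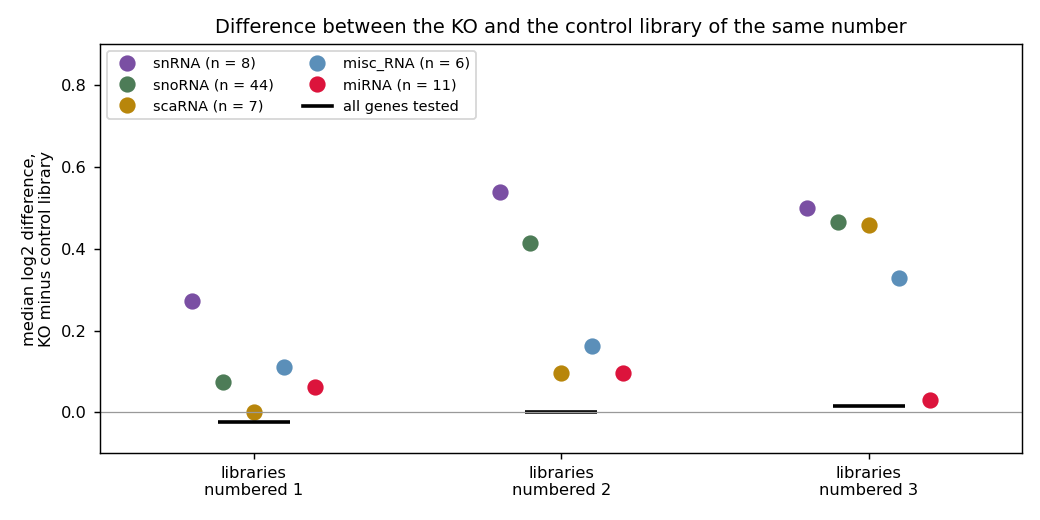
Median difference between the KO and the control library of the same number (y axis, log2(value + 1) scale) for libraries numbered 1, 2 and 3 (x axis), by biotype and for all genes tested. The snRNA medians were 0.27, 0.54 and 0.50, the snoRNA medians 0.07, 0.42 and 0.46, and the black bars for all genes lie near 0. Genes that met the minimum through the mean of 1 group alone are included.

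Among the spliceosomal RNAs, U1 recognises the 5′ splice site. The U1 gene Gm22513 had 11, 20 and 24 normalised counts in controls against 14, 30 and 35 in KO. It was higher in KO in each number, the groups overlapped, and the log2 difference was 0.47 ± 0.43 (SE). The other U1 gene, Gm25189, had 5, 6 and 12 against 7, 13 and 20, with a log2 difference of 0.70 ± 0.53, and it too met the minimum through its KO mean. The U1 sequences are 95.7% identical, with 7 substitutions from Gm25189 to Gm22513: T58C, G59T, T60C, A88C, T151C, T153C and T164G, counted from 1 at the 5′ end. Reads can match both, and their sum of 16, 26 and 36 against 21, 43 and 55 is free of the division between these 2 genes. Whether reads were also shared with other annotated U1 copies was not tested. The letters ACTTACCT from position 3 were found on the RNA strand of 2 of the 8 snRNA genes and of 60 of the 1383 snRNA transcripts annotated (4.34%).

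U4 chaperones U6 into the spliceosome. Its gene Gm24265 had 14, 19 and 28 in controls and 15, 28 and 35 in KO, and Gm24407 had 10, 16 and 16 against 13, 18 and 31. Both genes were higher in KO in each number, and both overlapped between groups. They differ by A88G and A99C from Gm24407 to Gm24265 (98.6% identity) and summed to 24, 35 and 44 against 28, 46 and 66. The U2 gene Gm25939, which lies in an intron of the noncoding gene D230017M19Rik, had 12, 11 and 23 against 9, 24 and 28. GTAGTA occurred in 1 of the 8 snRNA genes and in 3.69% of those annotated.

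U11 and U12 serve the minor spliceosome, which removes a small class of introns. Rnu11 had 11, 16 and 17 in controls and 13, 18 and 34 in KO, where KO library 3 stood apart and the other 5 libraries ran from 11 to 18. Rnu12 had 9, 10 and 17 against 12, 15 and 24, higher in KO in each number but with overlapping groups. Their log2 differences were 0.45 ± 0.41 and 0.46 ± 0.40. The 8th gene of the biotype, Gm22107, lies in an intron of Myh9 and went the other way, with 17, 13 and 11 against 13, 8 and 7. It met the minimum through its control mean alone, so it had to have the lower KO mean. Its log2 difference was -0.53 ± 0.40, while Myh9, a nonmuscle myosin heavy chain gene, had 2260, 2361 and 3014 against 2367, 3060 and 3665. The letters ATTTNTG, a form of the Sm site, occurred in 6 of 8 members and in 20.5% of annotated snRNA transcripts. Rnu11 and Gm22107 were the members without them. Rnu11 holds ATTTTTTG, with a longer T run than the pattern allows, so it cannot be said to lack an Sm site. The gene just inside the minimum was Gm25189 and just outside Gm25813, with 6, 5 and 9 against 5, 10 and 20.

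The 44 snoRNA genes contained TGATGA in the first 20 and CTGA in the last 15 bases, the C and D boxes, in 15 cases (20.2% of 1507 annotated snoRNA transcripts). Another 26 had ACA in the last 8 bases without both of those boxes, and 3 had neither the pair of boxes nor ACA. Of these 3, Gm24494 had CTGA in its window without TGATGA in the other. ACA in the last 8 bases occurred in 28 members in all and in 46.8% of those annotated, and only the RNA strand was searched. The 15 genes with C and D boxes had a median length of 86 bases and summed to 285, 304 and 380 in controls and 280, 353 and 453 in KO. The 26 genes with ACA had a median length of 135.5 bases and summed to 284, 360 and 505 against 311, 508 and 738. KO was higher for 11 of 15 (median log2 difference 0.20) and for 24 of 26 (0.39). Several of the genes with ACA, among them Snora30, Snora70 and Gm24029, met the minimum through their KO mean alone. Snord49a and Gm23130, with C and D boxes, met it through their control mean alone. The direction of these genes was fixed by the minimum, so the 2 counts cannot be set against each other. Whether these sets differ was not tested.

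Among C/D box snoRNAs, the U14 genes assist cleavage of the ribosomal RNA precursor to 18S rRNA and are hosted by Hspa8, a chaperone gene. Snord14c had 25, 20 and 23 in controls and 32, 28 and 32 in KO, so that all KO libraries lay above all controls. Its log2 difference of 0.42 ± 0.22 had an unadjusted p of 0.092 and did not pass. Snord14d had 23, 25 and 29 against 29, 28 and 32, and Snord14e 22, 17 and 32 against 21, 22 and 20. Snord14c and Snord14d differ by A47G and G49A from Snord14d to Snord14c, so the split of reads between them is uncertain. The 3 genes summed to 70, 62 and 84 against 82, 78 and 84, which overlap. Hspa8 itself had 502, 479 and 543 against 392, 465 and 417, lower in KO at a log2 difference of -0.26 (unadjusted p = 0.061) and without overlap between groups. Snord14c overlaps an exon of one of its transcripts.

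Gm24494, in an intron of Rabggtb, a subunit gene of Rab geranylgeranyl transferase, had 8, 7 and 8 in controls and 12, 14 and 17 in KO. These groups did not overlap, the log2 difference was 0.81 ± 0.36, and its unadjusted p was 0.055. Its control mean of 7.67 lay under the minimum of 10, which it met through its KO mean of 14.3. Its host had 134, 139 and 110 against 125, 109 and 120, which overlap. On the low side stood Snord49a with 18, 13 and 8 against 10, 6 and 10 (-0.50 ± 0.44) and Gm23130 with 10, 16 and 9 against 8, 11 and 8 (-0.31 ± 0.40), both overlapping. Both met the minimum through their control mean alone, so their lower KO means are no support for a direction. Snord15b, hosted by the ribosomal protein gene Rps3, had 23, 27 and 38 against 25, 38 and 57. Snord17 had 39, 57 and 69 against 38, 46 and 78, a log2 difference of -0.06. Gm24339 had 29, 25 and 40 against 24, 31 and 45, with the highest mean per length of the snoRNA genes at 42.5 normalised counts per 100 bases.

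Of the snoRNAs with ACA near the 3′ end, Gm26447 lies in Eif4a2, a translation initiation factor gene, and had 12, 16 and 19 in controls and 18, 26 and 34 in KO. KO was higher in each number, the groups overlapped at 18 and 19, and the log2 difference was 0.67 ± 0.33. Gm25117, in an intron of the histone chaperone gene Nap1l1, had 6, 7 and 17 against 11, 22 and 24 (0.93 ± 0.50), where control library 3 exceeded KO library 1. It is 91.0% identical to Gm22988 in Eif4a1. Gm24119, in Slc25a3, had 20, 37 and 45 against 22, 40 and 67.

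Snora73b, also known as U17, is a snoRNA needed for an early cut of the ribosomal RNA precursor and sits in an intron of Rcc1. It had 24, 39 and 61 in controls and 25, 62 and 90 in KO, a mean of 41.3 ± 18.6 against 59.0 ± 32.6. The libraries numbered 1 were close to each other and the gap opened in numbers 2 and 3, so the groups overlapped widely. Rcc1 had 36, 28 and 28 against 22, 40 and 35, without that order. The related Gm26448 in Rpsa (87.8% identity) had 11, 14 and 20 against 7, 23 and 41. The snoRNA just inside the minimum was Gm24029 with 4, 8 and 13 against 7, 11 and 17, and Snord87 lay just outside with 6, 6 and 9 against 6, 11 and 21.

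The small Cajal body RNA genes had a median level of 17.5 normalised counts per 100 bases, against 13.9 over all 76 members. Scarna2, which guides modification of U2, had 84, 114 and 114 normalised counts in controls and 74, 122 and 157 in KO, a log2 difference of 0.12 ± 0.28. It has no gene around it on its strand. Gm22009, in an intron of the importin gene Kpna4, had 73, 98 and 133 against 82, 96 and 139, where both libraries numbered 3 stood above the other 4. Gm25395 and Scarna6 share the host Atg16l1, an autophagy gene. Gm25395 had 28, 33 and 60 against 30, 50 and 84 and Scarna6 had 16, 18 and 24 against 17, 23 and 43, with log2 differences of 0.39 ± 0.42 and 0.41 ± 0.38. Both were higher in KO in each number, while Atg16l1 had 193, 171 and 183 against 166, 178 and 148. Gm22442, in Chd3, had 32, 38 and 50 against 25, 37 and 77, and Gm23119 had 11, 16 and 25 against 11, 21 and 24. The groups overlapped for all 6 of these genes. Scarna17 lay outside the minimum with 5, 6 and 5 against 2, 5 and 13.

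Of the misc_RNA genes, Rn7sk encodes 7SK, which holds the elongation factor P-TEFb inactive. It had 56, 70 and 93 in controls and 60, 68 and 105 in KO, a difference of 0.08 ± 0.27 that was small beside the step from number 1 to number 3 in either group. The Y RNAs bind Ro60 and La. Rny1 had 10, 15 and 11 against 11, 18 and 21 (0.42 ± 0.37), and Rny3 had 14, 20 and 19 against 17, 25 and 27 (0.35 ± 0.30). Both were higher in KO in each number, and both overlapped. Vaultrc5, a vault RNA gene, had 12, 17 and 16 against 8, 18 and 29, spreading on either side of the controls. Gm23833 in an intron of Airn had 19, 17 and 34 against 24, 16 and 28, and Gm22637 in an intron of Fermt2 had 19, 11 and 9 against 13, 18 and 8, with means of 13.0 in both groups. Gm24146 lay outside the minimum with 2, 5 and 11 against 4, 5 and 10. A T run at the 3′ end (last 3 bases TTT) was present in 6 of the 76 members and in 11.5% of the 5709 annotated transcripts of these biotypes.

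Genes of the miRNA biotype had the highest level per length, with a median of 46.3 normalised counts per 100 bases, and Gm23935 led at 123. Gm23935 had 52, 64 and 90 in controls and 57, 67 and 92 in KO, and its twin Gm24245 had 43, 58 and 68 against 42, 64 and 85. Relative to Gm23935, Gm24187 carries G11A and Gm23388 carries G2T, C16G, G21T and G48T. The split of reads among such copies is uncertain, and 3 members have an annotated copy with identical sequence. Together the 6 genes of this family came to 176, 240 and 323 against 185, 257 and 343, so KO was higher in each number by less than the step between numbers. Gm24187 had 27, 33 and 48 against 26, 33 and 43, and Gm25911 had 17, 28 and 48 against 18, 30 and 53. No ribosomal RNA reference was compared with these sequences or with Mir6236, so likeness to other repeated transcripts was not tested.

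Among the single genes, Mir6236, with the limit just given, had 42, 49 and 72 in controls and 42, 56 and 81 in KO. Mir1894, which overlaps an exon of the phosphatase regulator gene Ppp1r10, had 10, 11 and 11 against 13, 13 and 13. Its groups did not overlap, but the log2 difference was 0.26 ± 0.32 and rests on whole numbers 2 apart. Mir5125, in an intron of the splicing factor gene Srrm2, had 16, 26 and 20 against 19, 11 and 7, and had the smallest p of the members lower in KO (-0.78 ± 0.42, unadjusted p = 0.10). Srrm2 had 2092, 1623 and 1831 against 2030, 1632 and 1797. Mir1938 had 20, 12 and 13 against 18, 10 and 10 and was the only one of the 76 with both libraries numbered 1 above the other 4. Its host Ifrd1, an immediate early gene, had 579, 334 and 337 against 542, 217 and 228, again with number 1 highest. Gene counts over a hairpin can include the primary transcript and the host intron, so they are not levels of the mature miRNA. Mir145a, the hairpin of a miRNA abundant in SMC, lay just outside the minimum with 8, 9 and 13 against 7, 8 and 7.

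**Figure D4:**
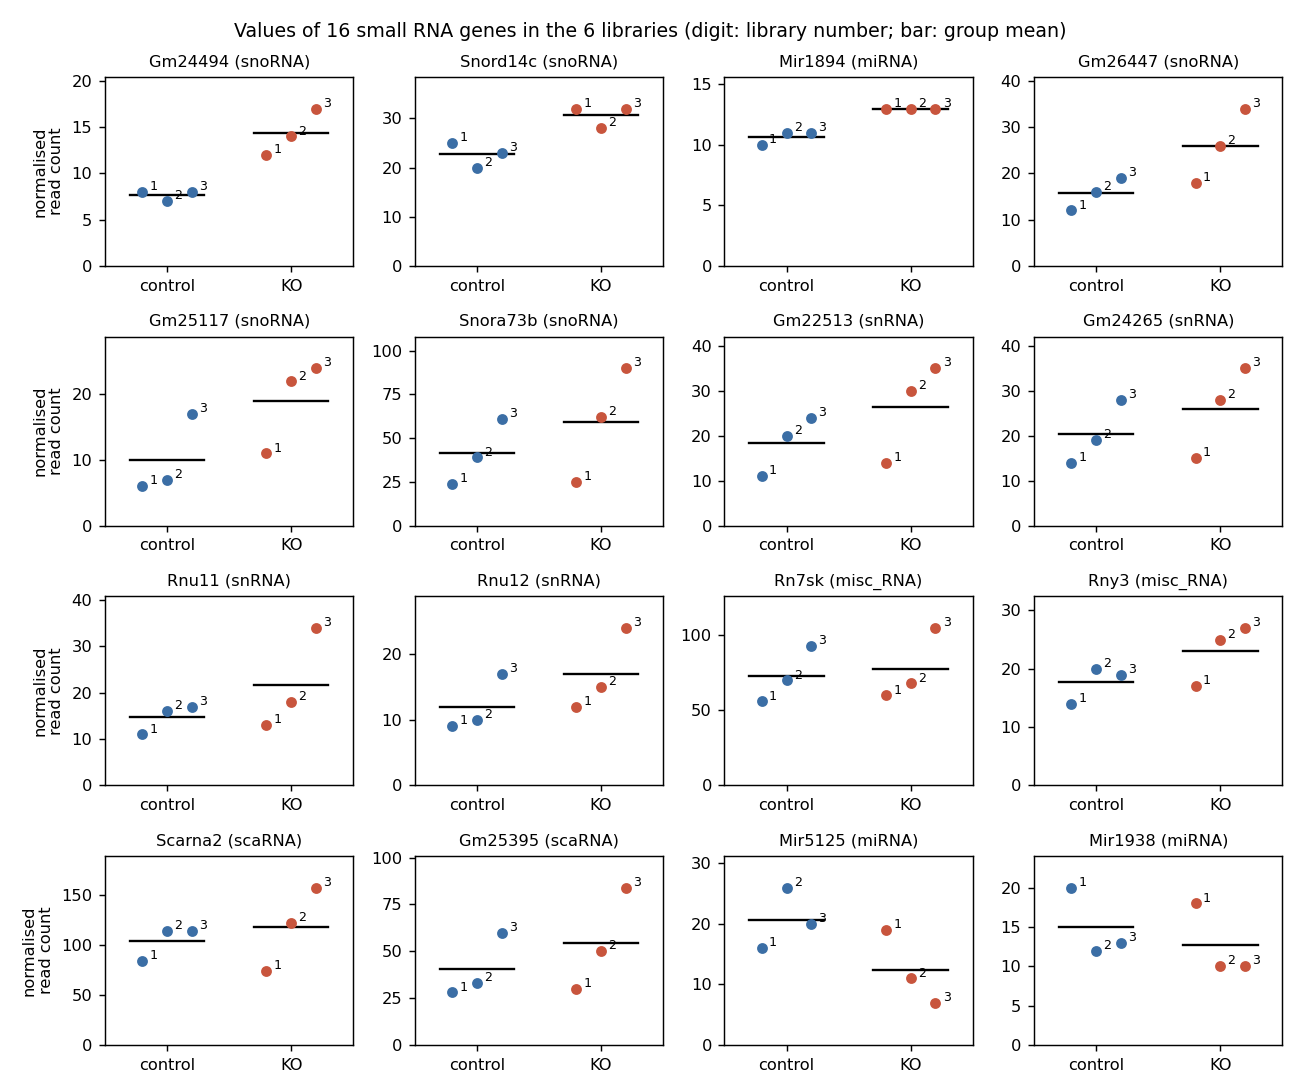
Normalised read count (y axis, from 0) of 16 small RNA genes in the 3 control and 3 KO libraries, with library numbers as digits and group means as bars. Gm24494, Snord14c and Mir1894 show no overlap between groups, Mir5125 and Mir1938 have lower KO means, and in most other panels number 3 is the highest of its group.

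A gene on the same strand surrounded 58 of the 76 members, 32 in an intron and 26 overlapping an exon of a transcript. Of the snoRNA genes 43 had such a host. Whether reads were assigned by strand, and how reads matching several genes were counted, was not given in the sources used here, so counts over exons can mix the small RNA with its host. The median log2 difference was 0.20 for intronic members, 0.27 for those over an exon and 0.23 for those without a host. Hosts of 56 members were tested, 46 distinct genes in all. Their median log2 difference was 0.00, 24 were higher in KO, 0 were called by limma and 0 had an unadjusted p under 0.05. The 56 small RNA genes had a median of 0.24, 44 were higher in KO, and 47 had a larger difference than their host. Among the 56 are genes that met the minimum through the mean of 1 group alone, such as Gm24494, Snora30 and Snord49a. Their direction was fixed by the minimum, so these values cannot be set against those of the hosts. Values without these genes were not computed.

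The order by library number also differed between small RNAs and hosts. From library 1 to library 3 the median log2 difference of the 56 members was 0.62 in controls and 0.90 in KO, whereas that of the 46 hosts was -0.04 and 0.09. In controls 45 of 56 members exceeded their host in this difference and in KO 44 did. Both libraries numbered 3 were highest for 7 hosts (15.2%) and for 16 of the 56 members. These are descriptions over genes that share libraries.

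**Figure D5:**
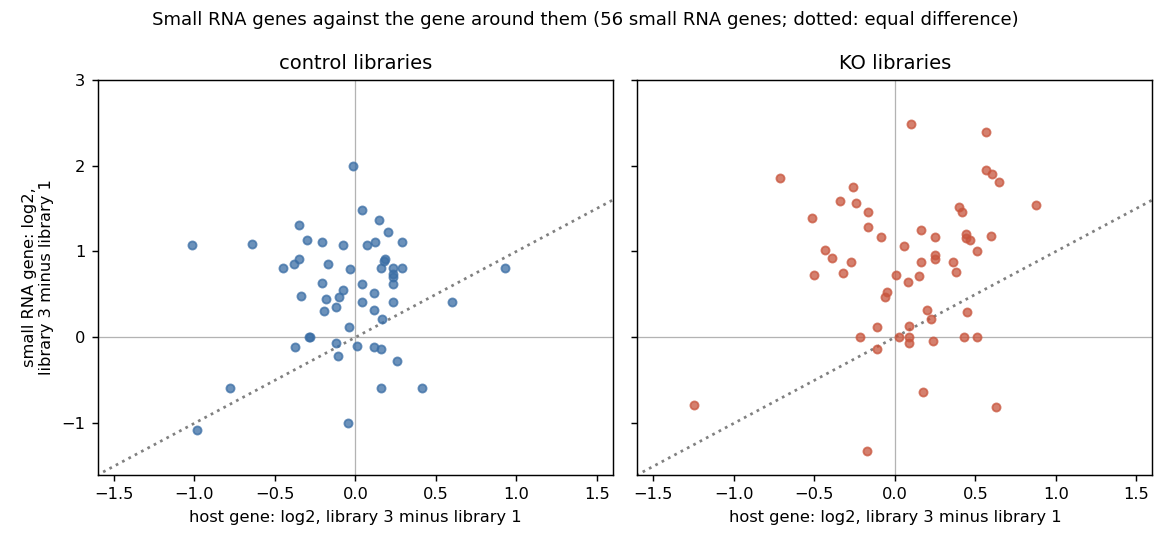
Difference of library 3 minus library 1 on the log2(value + 1) scale for 56 small RNA genes (y axis) against the gene around each (x axis), in control (left) and KO (right) libraries. Most points lie above the dotted line of equal difference, 45 of 56 in controls and 44 of 56 in KO.

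Genes for the proteins that make, carry or use small RNAs were read in 12 lists with 210 distinct tested genes. None was called by limma in the comparison of KO with control, and 2 (0.952%) had an unadjusted p under 0.05, against 1.81% of all genes. With the library number as a block 10 (4.76%) did, against 10.2% of all genes. The first 2 belong to the list of Sm and U snRNP proteins. Zmat5, a protein of the U11/U12 particle, had 20, 21 and 20 normalised counts in controls and 26, 29 and 39 in KO, with a log2 difference of 0.58. Lsm3, part of the ring on U6, had 27, 32 and 37 against 41, 43 and 52, with a log2 difference of 0.49. The groups did not overlap for either gene, and the adjusted p was 0.999 for both. Of the 32 genes of that list 27 were higher in KO, with a median log2 difference of 0.12, where 50.2% of all genes were higher.

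The remaining lists had medians closer to the 0.00 of all genes. The share of genes higher in KO was nevertheless 81.0% for the nuclear exosome and 75% for the signal recognition particle, against 50.2% of all genes. KO was higher for 11 of 23 genes of snRNA transcription and 3′ processing (median -0.01), 7 of 14 of snRNP assembly (0.00), 10 of 17 snoRNP protein genes (0.01) and 23 of 38 snoRNA host genes (0.02). It was higher for 4 of 7 genes of the 7SK particle (0.03), 6 of 8 of the signal recognition particle (0.04), 6 of 10 of RNase P and MRP (0.05) and 4 of 6 La, Ro and vault protein genes (0.05). For miRNA biogenesis it was 6 of 16 (-0.04), for RNA polymerase III and its factors 13 of 20 (0.03) and for the nuclear exosome 17 of 21 (0.07). Of the 210 genes, 23 (11.0%) had both libraries numbered 3 highest, against 9.83% of all genes and 35.5% of the small RNA genes.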

How the data were processed

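The deposited table holds 1 column for each of 6 libraries, and its values are a score: gene counts that the authors normalised by library and rounded to whole numbers, so whole reads were not recovered. Per the submitters' processing notes the tools were Trimmomatic 0.39, STAR 2.6.1d, featureCounts 1.6.5 and DESeq2 1.18.1, with builds mm10 and GRCm38.p5, without the role of each. Duplicate removal was not given in the sources used here. Of mitochondrially encoded genes, 0 are listed.

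The test was limma 3.58.1 (R 4.3.3) with an intensity trend on log2(value + 1), 2-sided, over genes with a mean of at least 10, and it was tested on simulated data. Log2 differences are on that scale, which understates changes of low genes. Members, lists and the naming rule were chosen with earlier results of these data known. The rule names the 5 highest members of each biotype, the 5 smallest p in each direction, members past the threshold, those nearest the minimum and list genes with an unadjusted p under 0.05. Of the genes that it names, 1 is not reported here. A permutation test planned for class sums is not printed, since the genes were chosen on the same values.

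Library pairs within a group differed beyond counting noise (chi-square per degree of freedom 3.09 to 10.2). Deviations from group means correlated at 0.59, 0.31 and 0.44 between same-numbered libraries, and at 0.16 at most between others. The numbers were therefore treated as pairing the libraries in the block and in the differences within numbers, from the data alone, since no label says so. The main test left this pairing out, so the SE and the p-values not named as blocked are unpaired. Alternatives were other pseudocounts, filters, scalings, variance models, the block and each library left out.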

Additional observations from a re-analysis of the deposited data

How the results depend on the processing

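None of the 76 members passed in the 18 alternatives, whose lowest adjusted p was 0.181, with sample quality weights. Over all genes limma called 0, and 2 with quality weights. In the replicate block, which pairs libraries by number, 1 was called, and 61 or 1 once both libraries numbered 1 or 2 were left out, settings chosen after seeing the data. Members with an unadjusted p under 0.05 numbered 0 (1.81% of all genes), but 1 with a pseudocount of 10 (1.81%), 3 without the trend (2.32%), 12 with quality weights (17.5%), 2 with the replicate block (10.2%), 6 with the block and number 1 left out (11.9%), 23 of 1345 without the filter (2.15%), and 0 to 7 with 1 library left out (0.982% to 10.3%). Members without overlap numbered 3 (4.91% of all genes), but 27 of 1345 without the filter and 0 of 8 with a minimum of 50. Under those filters the share of all genes was not computed. With 1 library left out they numbered 3 to 29. The 29 were without KO library 1, where 29.5% of all genes did not overlap, and 12 were without control library 3 (14.0%). For the other libraries that share was not computed, so these counts cannot be read against all genes. Without the filter the median log2 difference was -0.33 for snRNA, -0.33 for misc_RNA and -0.19 for all small RNA genes, where 36.8% were higher in KO. Over all listed genes that median was -0.14, and 33.5% were higher. A minimum of 50 leaves 8 members and no snRNA gene, so it gave no value there. Members higher in KO numbered 43 to 68 over the settings with all 76. The other scalings moved the all-gene median by 0.01 and -0.01. The cause of these shifts was not tested.

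Of the 40 named members, 17 turned sign in some setting, and 0 passed in any. With quality weights this was so for Gm22637 (0.27), Gm23833 (0.10) and Gm24187 (0.042). Gm22637 was 0.00087 with a pseudocount of 10 and 0.012 with upper-quartile scaling, where Gm23833 was 0.00096. With the block and number 1 left out Gm22637 was 0.26. With number 2 left out Gm23119 was -0.028, Gm23833 0.025, Gm24339 -0.049, Gm25939 -0.053 and Snord17 0.069. With number 3 left out Gm22442 was -0.19, Gm22637 0.074, Gm23833 0.12, Scarna2 -0.042 and Vaultrc5 -0.23. With 1 library left out in turn, Gm22009 ranged from -0.15 to 0.28, Gm22442 from -0.36 to 0.43, Gm22637 from -0.25 to 0.29, Gm23119 from -0.16 to 0.43 and Gm23833 from -0.20 to 0.28. Gm23935 ranged from -0.11 to 0.29, Gm24119 from -0.11 to 0.67, Gm24187 from -0.25 to 0.15, Gm24245 from -0.093 to 0.41, Gm24339 from -0.17 to 0.27 and Gm25911 from -0.28 to 0.47. Mir6236 ranged from -0.12 to 0.34, Rn7sk from -0.16 to 0.26, Scarna2 from -0.11 to 0.42, Snord17 from -0.35 to 0.16 and Vaultrc5 from -0.28 to 0.59.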

Other observations

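Other short structured RNAs of the table fall outside the 5 biotypes. Rmrp, the RNA of RNase MRP, which cuts the ribosomal RNA precursor, had 96, 130 and 176 normalised counts in controls (numbers 1, 2 and 3) against 89, 153 and 225 in KO. Rpph1, the RNA of RNase P, which trims tRNA precursors, had 115, 145 and 195 against 122, 179 and 235. Their log2 differences were 0.16 ± 0.35 and 0.22 ± 0.28 (SE), with an adjusted p of 0.999 in limma for both. In each gene both libraries numbered 3 were the highest of the 6. CT010467.1, annotated as rRNA, had 117, 183 and 190 against 76, 195 and 266, with both libraries numbered 1 lowest.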
